A study of Mus musculus with 13 samples.

Results

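The 8 genes described here belong to the LIF receptor and STAT3 pathway of mouse ES cells: the receptor subunits Lifr and Il6st, the kinase Jak1, the transcription factor Stat3, the feedback inhibitors Socs3 and Socs2, and the kinase genes Pim1 and Pim3. They were taken by symbol from the 24079 genes of a raw RNA-seq count table, in which all 8 were present. The samples were asynchronous cultures of CGR8, a feeder-independent mouse ES cell line, treated for 48 h. Control cells received 0.5% DMSO, the solvent, and PhenDC3-treated cells received 10 μM PhenDC3, a small-molecule ligand that binds and stabilizes G-quadruplexes (G4), with 0.5% DMSO as well by the methods of the study. All cells grew on gelatin in medium with 10% FBS and 1000 units/ml of added LIF, so that the ligand of the receptor was supplied from outside in both conditions. RNA-seq covered 3 control and 3 PhenDC3 samples with 22232014 to 29486502 counts each, and a second assay of replication start sites, SNS-seq, covered 3 control and 2 PhenDC3 samples. The labels call the samples replicates without saying whether they were separate cultures, so the p-values measure the spread between samples, which may be technical.

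Leukaemia inhibitory factor (LIF) keeps mouse ES cells undifferentiated in serum-containing medium. It joins LIFR to gp130, the product of Il6st, and the JAK kinases held on the tails of these receptors phosphorylate them and STAT3, which then forms dimers, enters the nucleus and binds DNA. Among the genes that STAT3 turns on, Socs3 encodes a protein that binds gp130 and blocks the JAKs, and the PIM genes encode serine/threonine kinases that favour survival and self-renewal. The files hold RNA levels, and the phosphorylation of STAT3 was not analysed here.

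After PhenDC3, RNA of the feedback inhibitors Socs3 and Socs2 and of the kinase Pim3 fell to between 1.72 and 1.97 times lower levels, RNA of Pim1 rose 1.83-fold, and the receptor, kinase and STAT genes did not pass the test. The calls come from edgeR's quasi-likelihood test over 13972 genes with Benjamini-Hochberg adjustment, at an adjusted p of at most 0.05. Of the 8 genes, 4 passed (1 higher, 3 lower), beside 36.8% of all genes tested, 18.0% higher and 18.7% lower. Groups did not overlap for 5 of the 8 genes, the 4 that passed and Lifr, beside 50.6% of all genes tested. No test compared the members' shares with these, and the members were chosen with earlier results of these data known. The count over all genes was 5135, and it was 3332 without PhenDC3 replicate 1, whereas the count of members stayed at 4 there. With the replicate number as a term of the fit (a block), 7489 genes passed, 7 members among them. Lifr, Jak1 and Stat3 joined the 4 in that fit. The labels do not say whether same-numbered samples share a batch. The median log2 fold change of the 8 genes was -0.25, beside 0.01 over all genes tested. It was -0.41 without control replicate 2, -0.13 without PhenDC3 replicate 2 and -0.073 without control replicate 3. Levels are given as CPM, counts divided by a library total that was scaled by relative log expression, where 1 CPM stands for 21.9 to 28.8 counts, and fold changes are PhenDC3 over control.

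**Figure D1:**
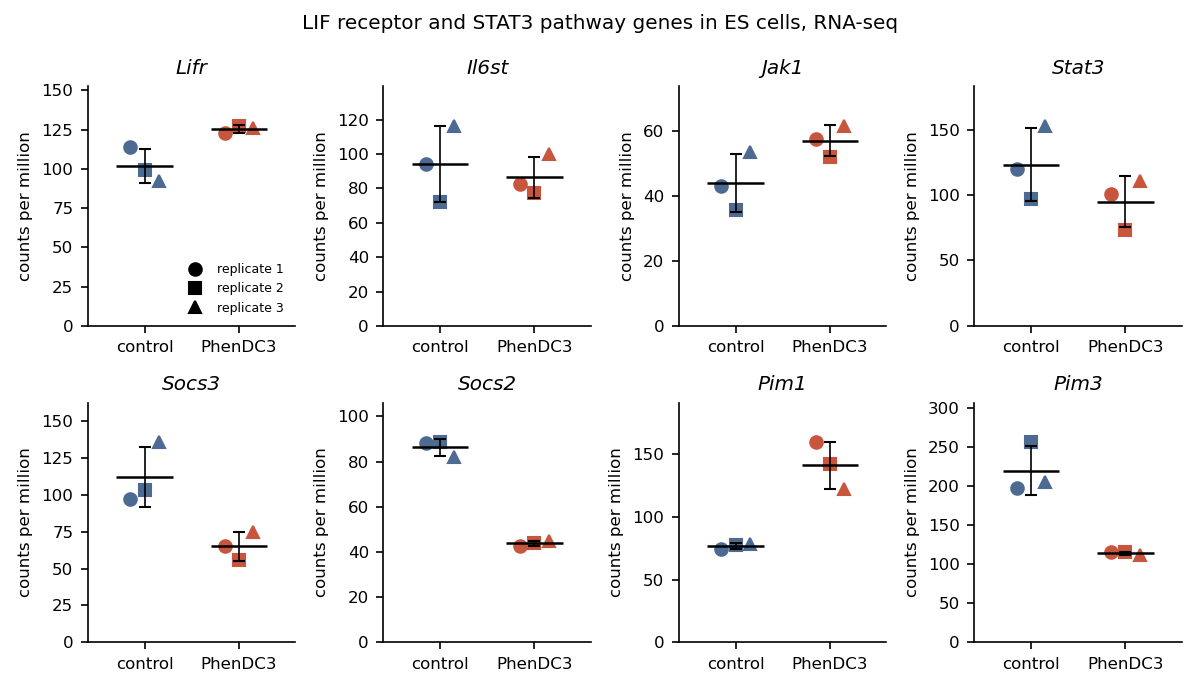
RNA level of the 8 pathway genes in the 6 RNA-seq samples, in CPM on a linear axis that starts at 0; the marker shape is the replicate number, the horizontal line the mean and the bar 1 SD (n = 3). PhenDC3 samples lie below all control samples for Socs3, Socs2 and Pim3 and above them for Lifr and Pim1, and the groups overlap for Il6st, Jak1 and Stat3.

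Lifr encodes LIFR, the receptor subunit that LIF joins to gp130. Its RNA stood at 114, 98.9 and 92.5 CPM in control replicates 1, 2 and 3 and at 123, 127 and 126 CPM in the PhenDC3 replicates. All PhenDC3 samples lay above all controls, but the step was small. The log2 fold change was 0.30 ± 0.11 (SE, n = 3 and 3), with a 95% interval of 0.05 to 0.55, and it missed the threshold of edgeR's test (adjusted p = 0.0633). Without control replicate 1, the highest control, it was 0.38 and passed (adjusted p = 0.0411). With the replicate number as a block in the fit it was 0.30 and passed as well (adjusted p = 0.012). Lifr lies at chr15:7129572-7197489 (GRCm38, plus strand) and has 2 annotated starts. The 250 bases before its upstream start are shown because they hold a predicted G4, the structure PhenDC3 binds. Capitals mark the stretch with a G4Hunter score of at least 2 in windows of 25 bases, 95 to 54 bases upstream of the start. G4Hunter scores a sequence from its runs of G or C, and it predicts a structure from the letters only.
Lifr promoter, chr15:7129322-7129571, plus strand: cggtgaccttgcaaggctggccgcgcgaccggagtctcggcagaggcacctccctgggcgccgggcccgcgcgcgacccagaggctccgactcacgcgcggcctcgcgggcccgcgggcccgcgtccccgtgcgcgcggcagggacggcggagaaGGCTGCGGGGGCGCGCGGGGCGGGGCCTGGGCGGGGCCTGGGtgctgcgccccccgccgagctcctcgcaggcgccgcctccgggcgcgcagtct

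Il6st encodes gp130, the signalling subunit that LIF shares with the other cytokines of the interleukin-6 family. Control replicates gave 94.0, 72.1 and 116 CPM, and PhenDC3 replicates gave 82.5, 77.1 and 100.0 CPM. The groups overlapped almost fully. Its log2 fold change was -0.12 ± 0.18 (SE, adjusted p = 0.622), and the interval of -0.52 to 0.28 leaves room for a change in either direction. Without control replicate 3 the sign turned (0.052, adjusted p = 0.813). Il6st lies at chr13:112464070-112506860 (plus strand), and a predicted G4 spans its start, from 13 bases upstream to 20 bases downstream.

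The other receptors and the ligands of the family were mostly weakly expressed. The pathway list held 7 ligand genes, of which 5 had enough counts to be tested, and 4 receptor genes beside Lifr and Il6st. Lif itself was higher after PhenDC3: it stood at 5.00, 5.56 and 5.79 CPM in control and at 17.2, 15.6 and 18.7 CPM in PhenDC3. This is a log2 fold change of 1.66 ± 0.15 (SE, adjusted p = 0.000121) with no overlap between the groups, in cells that received LIF with the medium. Cntfr, the receptor subunit that binds ciliary neurotrophic factor, gave 3.11, 5.65 and 2.12 CPM in control and 0.69, 0.46 and 0.62 CPM in PhenDC3. It changed by a log2 fold change of -2.60 ± 0.40 (SE, adjusted p = 0.00153), at 11 to 20 counts per PhenDC3 sample. Il6, the founding ligand of the family, had 1 count at most in any sample and could not be tested.

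Jak1 encodes the JAK kinase that is needed for signalling through gp130. It gave 43.0, 35.7 and 53.5 CPM in control and 57.7, 52.1 and 61.6 CPM in PhenDC3. The lowest PhenDC3 sample lay below the highest control, so the groups overlapped. The log2 fold change of 0.37 ± 0.15 (SE, interval 0.02 to 0.72) missed the threshold of edgeR's test (adjusted p = 0.0873). Without control replicate 3 it was 0.53 and passed (adjusted p = 0.0138). With the replicate number as a block in the fit it was 0.39 and passed as well (adjusted p = 0.00403). Jak1 lies at chr4:101151974-101265282 (minus strand), and its exon sequence overlaps the span of Raver2, introns included, on the other strand. Raver2 averaged 18.4 CPM in control and 12.1 CPM in PhenDC3. The library kit kept the strand, but the strand setting of the counting is not given in the sources used here, so reads of the 2 genes may not be fully separated.

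Jak2, the paralogue that gp130 can also use, rose from 5.36, 4.92 and 5.62 CPM to 13.4, 12.7 and 11.5 CPM. The log2 fold change of Jak2 was 1.24 ± 0.15 (SE, adjusted p = 0.000443), and no PhenDC3 sample came near a control. Tyk2, the third JAK of the gp130 receptors, averaged 51.8 ± 7.74 CPM (SD, n = 3) in control and 52.6 ± 2.17 CPM in PhenDC3. The difference, 0.02 ± 0.13 on the log2 scale (SE, adjusted p = 0.906), was close to 0. Of the 7 kinase and adaptor genes other than Jak1, 2 passed the test, both higher, which is 28.6% beside the 36.8% of all genes tested.

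Stat3 encodes the transcription factor at the centre of the pathway. Control replicates gave 120.2, 97.0 and 153 CPM and PhenDC3 replicates gave 101, 73.1 and 111 CPM. The samples were widely spread within each condition and the groups overlapped. Within each replicate number the PhenDC3 sample was the lower one. The log2 fold change of -0.38 ± 0.20 (SE, interval -0.82 to 0.07) did not pass (adjusted p = 0.164). It was -0.20 without control replicate 3 and -0.22 without PhenDC3 replicate 2, and -0.53 without control replicate 2 (adjusted p = 0.0581). With the replicate number as a block in the fit it was -0.37 and passed (adjusted p = 0.00231). Stat3 lies at chr11:100886806-100939540 (minus strand), and its exon sequence overlaps the span of Gm46295, a gene outside the count table. Of the 6 other STAT genes, 1 passed, Stat6, a STAT of interleukin-4 signalling (-0.32 ± 0.11, adjusted p = 0.0449), and of the 6 fits that left out 1 sample it kept the call only without control replicate 2 (adjusted p from 0.0373 to 0.141). The paralogues Stat5a and Stat5b did not pass. Stat5a gave 0.09 ± 0.17 (adjusted p = 0.686) and Stat5b gave 0.31 ± 0.19 (adjusted p = 0.213), as log2 fold changes with SE.

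Socs3, the feedback inhibitor that binds gp130 and the JAKs, was lower after PhenDC3. It stood at 97.3, 103 and 135 CPM in control and at 64.9, 55.5 and 74.9 CPM in PhenDC3, and the highest PhenDC3 sample lay below the lowest control. Its log2 fold change was -0.78 ± 0.16 (SE, adjusted p = 0.00566), and 9.48% of all genes tested fell at least as far. Socs3 lies at chr11:117966079-117969366 (minus strand). Its promoter is shown because it held the STAT motif TTCNNNGAA within 500 bases of a start. No other of the 7 members whose promoters were searched did so, and Socs2 was not searched. The search reads both strands, since the motif is its own reverse complement. The motif lay 154 bases upstream (capitals in the promoter) and again 119 bases downstream, inside the transcribed part, where it also fits the narrower form TTCCNGGAA. Over all 32851 promoters, 24.98% held TTCNNNGAA and 3.31% held TTCCNGGAA within 500 bases. A match describes letters and does not show that STAT3 binds there.
Socs3 promoter, chr11:117969367-117969616, minus strand: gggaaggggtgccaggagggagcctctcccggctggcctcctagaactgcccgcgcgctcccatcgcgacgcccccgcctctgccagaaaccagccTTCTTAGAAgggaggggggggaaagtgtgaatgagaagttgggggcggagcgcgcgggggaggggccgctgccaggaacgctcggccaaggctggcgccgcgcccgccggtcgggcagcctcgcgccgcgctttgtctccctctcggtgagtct
Socs3 downstream match, chr11:117969229-117969257, minus strand: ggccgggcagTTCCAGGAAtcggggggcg

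Socs2, which acts mainly on growth hormone and other STAT5-linked receptors, had the lowest adjusted p of the 8 genes. It gave 88.3, 88.5 and 82.1 CPM in control and 42.7, 43.9 and 44.9 CPM in PhenDC3. Both groups were tight and lay far apart. It changed by a log2 fold change of -0.98 ± 0.10 (SE, adjusted p = 0.0002), a 1.97-fold lower level, and 6.58% of all genes tested fell at least as far. Socs2 lies at chr10:95411490-95416857 (minus strand) with 4 annotated starts. Among 12479 genes compared, those whose log2 CPM followed Socs2 most closely over the 6 samples included 2010204K13Rik (Pearson r = 0.999) and Pbdc1 (r = 0.998). These 6 points fall into 2 conditions, and 916 genes had an r above 0.95, so the likeness mainly describes the gap between the conditions.

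Of 13 inhibitor genes beside Socs3 and Socs2, 4 were higher, 1 was lower and 8 did not pass. The 5 that passed are 38.5%, near the 36.8% of all genes tested. Socs5 rose (log2 fold change 0.84 ± 0.20, SE, adjusted p = 0.0102), as did Pias2 (0.59 ± 0.10, adjusted p = 0.00271) and Pias3 (0.44 ± 0.10, adjusted p = 0.0102). PIAS3 is known to bind STAT3 and block its contact with DNA. Exon sequence of Pias2 overlaps the span of 4930520E11Rik, and that of Pias3 the span of Nudt17, each on the other strand. Socs1 and Cish, the closest relatives of the pair that fell, were little expressed, at 19 to 33 and 112 to 160 counts per control sample. Neither passed (Socs1 -0.78 ± 0.44, adjusted p = 0.193; Cish 0.30 ± 0.21, adjusted p = 0.297).

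Pim1 rose. Its RNA stood at 74.2, 77.8 and 78.6 CPM in control and at 159, 142 and 122 CPM in PhenDC3. Controls were close together, PhenDC3 samples more spread, and the groups did not overlap. Its log2 fold change was 0.88 ± 0.12 (SE, adjusted p = 0.000879), and 10.8% of all genes tested rose at least as far. Pim1 lies at chr17:29490785-29496111 (plus strand), and its exon sequence overlaps the span of Gm26885, a gene on the other strand that is outside the count table. Its promoter is shown because it held 3 predicted G4, more than the other promoters of the 7 members with an entry. Capitals mark them, from 225 to 197, 161 to 125 and 88 to 59 bases upstream, with the G-rich strand as shown in the first and the opposite strand in the other two.
Pim1 promoter, chr17:29490535-29490784, plus strand: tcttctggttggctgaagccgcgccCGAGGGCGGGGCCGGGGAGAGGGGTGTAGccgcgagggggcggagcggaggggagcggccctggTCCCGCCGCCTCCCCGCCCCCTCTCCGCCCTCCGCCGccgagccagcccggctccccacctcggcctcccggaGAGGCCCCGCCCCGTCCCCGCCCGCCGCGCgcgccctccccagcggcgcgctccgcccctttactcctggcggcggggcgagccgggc

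Pim3, at chr15:88862194-88865726 (plus strand), moved the other way. It gave 198, 255 and 205 CPM in control and 115, 115 and 112 CPM in PhenDC3. The PhenDC3 samples nearly coincided, well under every control. The log2 fold change was -0.94 ± 0.12 (SE, adjusted p = 0.000688), a 1.92-fold lower level, and 6.98% of all genes tested fell at least as far. Gm33049, which overlaps Pim3 on the same strand, is outside the count table. Pim2, the remaining PIM kinase, went from 30.9, 39.3 and 49.2 CPM to 17.3, 17.8 and 14.7 CPM. This is a log2 fold change of -1.26 ± 0.18 (SE, adjusted p = 0.000915) with no overlap, so that Pim1 alone of the PIM genes was higher.

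**Figure D2:**
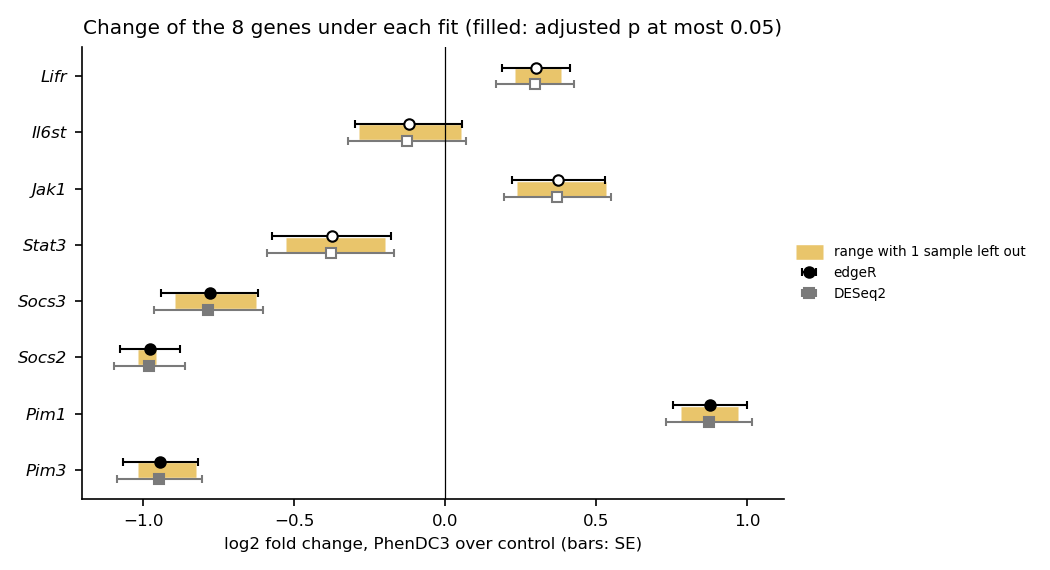
Log2 fold change of each of the 8 genes, PhenDC3 over control, on a linear axis; circles are edgeR, squares DESeq2, bars the SE, filled symbols an adjusted p of at most 0.05, and the yellow band the range of edgeR fits that left out 1 sample. Socs3, Socs2 and Pim3 stay below 0 and Pim1 above 0 across the band, whereas the band of Il6st crosses 0.

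A predicted G4 within the 300 bases around a start (250 before, 50 after) was found in 4 of the 9 promoter entries of 7 members, 1 each of Pim1, Lifr, Socs3 and Il6st. The share was 19.3% over all promoter entries of RefSeq (GRCm38.p6). By their RNA, 1 of these 4 genes rose, 1 fell and 2 did not pass the test. Jak1, Stat3 and Pim3 had no stretch within these 300 bases that reached the score. Farther from their starts each had one. Within 500 bp of the peak centre, 12 of 14 SNS-seq peaks at Jak1 had a predicted G4. At Stat3 it was 6 of 7 and at Pim3 7 of 14. These peaks are not separate places, since a place with a peak in several lists counts once for each list. Socs2 is named only.

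Levels of different genes can be compared once counts are divided by exon length, as counts per kilobase of exon, on the CPM scale (RPKM). In control the order was Pim3 (90.7 ± 12.9 RPKM, SD, n = 3), Socs3 (41.0 ± 7.48), Socs2 (32.0 ± 1.36), Pim1 (28.3 ± 0.86), Stat3 (27.3 ± 6.20), Il6st (17.3 ± 4.06), Lifr (9.85 ± 1.06) and Jak1 (8.31 ± 1.70). Sample ranges overlapped between Stat3 and both Pim1 and Socs2, and between Lifr and Jak1. After PhenDC3 the order was Pim1 (52.0 ± 6.87), Pim3 (47.2 ± 0.77), Socs3 (23.8 ± 3.57), Stat3 (21.0 ± 4.33), Socs2 (16.2 ± 0.42), Il6st (15.9 ± 2.197), Lifr (12.1 ± 0.23) and Jak1 (10.8 ± 0.91). Here Pim1 and Pim3 overlapped, as did each neighbouring pair from Socs3 down to Il6st and, beyond neighbours, Stat3 and Il6st. Both receptor subunits and Jak1 had the lowest means of the 8 RNAs in either condition.

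On this scale the levels within a family can be summed and its makeup described. Summed PIM level went from 124, 153 and 138 RPKM in control to 115, 108 and 98.4 RPKM in PhenDC3. All PhenDC3 samples were lower, at 0.77 times the control mean. The share of Pim1 in this sum was 22.0, 18.7 and 21.0% in control and 51.1, 48.2 and 45.7% in PhenDC3, while that of Pim3 averaged 65.4% and 44.1%. An exact permutation test (two-sided) gave p = 0.1 for the sum and for each share, the smallest value that 3 against 3 samples allow. The 8 genes of the SOCS family summed to 90.7 ± 8.76 RPKM (SD, n = 3) in control and 64.2 ± 7.37 RPKM in PhenDC3. Socs2 and Socs3 together held 80.5 ± 1.81% of that sum in control and 62.5 ± 1.56% in PhenDC3 (exact permutation test, p = 0.1). Among the 4 JAK genes the share of Jak1 was 27.3 ± 3.87% and 26.9 ± 1.89% (p = 0.8, exact permutation test), although their sum went from 30.5 ± 4.57 to 40.0 ± 1.45 RPKM (p = 0.1). Among the 7 STAT genes the share of Stat3 was 49.3 ± 2.63% and 44.3 ± 4.57% (p = 0.2, exact permutation test).

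**Figure D3:**
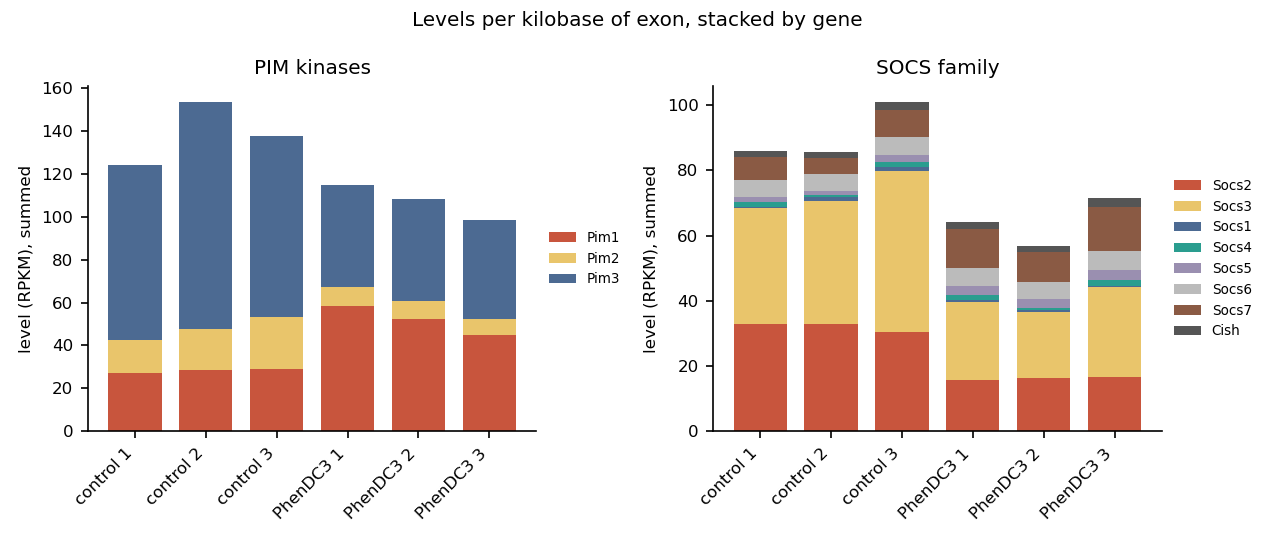
Summed level of the 3 PIM kinase genes (left) and the 8 SOCS family genes (right) in each RNA-seq sample, in RPKM, with each bar stacked by gene from 0. In the PIM bars the Pim1 part takes 18.7 to 22.0% in control and 45.7 to 51.1% in PhenDC3, and in the SOCS bars Socs2 and Socs3 together average 80.5% in control and 62.5% in PhenDC3.

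The pathway list held 56 genes, the 8 members included, of which 54 were tested. Over the list 24 genes passed (11 higher, 13 lower), or 44.4% beside the 36.8% of all genes, with a median log2 fold change of 0.02. Without PhenDC3 replicate 2 the split was 12 higher and 8 lower, and without control replicate 3 it was 15 higher and 9 lower. The median went from -0.062 without control replicate 2 to 0.081 without control replicate 3, so its sign is not settled. Among the 46 tested genes other than the members, 20 passed, 10 in each direction. By role, 9 of the 11 other targets passed, and calls were sparser among ligands (2 of 5), receptors other than the members (1 of 4), kinases and adaptors (2 of 7), STATs (1 of 6) and inhibitors (5 of 13). No test compared these shares, and the list was chosen with earlier results of these data known.

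The targets of LIF and STAT3 signalling in ES cells split in direction. Tfcp2l1, a transcription factor that sustains the naive state downstream of STAT3, rose from 245, 212 and 360.1 CPM to 807, 687 and 1020.2 CPM (log2 fold change 1.62 ± 0.22, SE, adjusted p = 0.000754). Klf4, another STAT3 target of the naive network, rose from 154, 177 and 167 CPM to 299, 309 and 273 CPM (0.82 ± 0.11, adjusted p = 0.000762). Pramel7, a target known to promote the naive state, rose from 0.80, 0.14 and 0.09 CPM to 2.88, 2.17 and 2.29 CPM (2.75 ± 0.58, adjusted p = 0.00612), with 2 to 22 counts per control sample. Without control replicate 1, which holds most of those counts, its log2 fold change was 4.40. These 3 targets rose together with Pim1, and 6 others fell together with Pim3. Gbx2, a homeobox gene that STAT3 induces, dropped from 26.1, 34.1 and 27.4 CPM to 0.87, 0.33 and 0.80 CPM. Its log2 fold change was -5.42 ± 0.28 (SE, adjusted p = 2.63e-05), a 42.7-fold lower level that rests on 8 to 25 counts per PhenDC3 sample. Myc, the growth-promoting transcription factor, fell from 48.2, 46.6 and 55.6 CPM to 11.2, 6.61 and 13.3 CPM (-2.27 ± 0.23, adjusted p = 0.000189).

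A further 7 list genes that passed lie outside the rule for naming and are named after their values were seen, as is Stat6 above. Junb, an AP-1 subunit, was lower (log2 fold change -1.01 ± 0.25, SE, adjusted p = 0.0127), and Jak3, the JAK of receptors with the common gamma chain, was higher (0.61 ± 0.15, adjusted p = 0.0131). Both held in every fit that left out 1 sample. Socs7 was higher (0.76 ± 0.20, adjusted p = 0.017), and the ligand Osm, the phosphatase gene Ptpn1, Bcl3 and the mRNA decay factor Zfp36 were lower. These 5 lost the call in at least 1 such fit. Osm, at 11 to 40 counts per sample, had an adjusted p of 0.0308 with all samples and between 0.0204 and 0.12 with 1 sample left out. The corresponding ranges were 0.00783 to 0.0628 for Socs7, 0.0311 to 0.097 for Ptpn1, 0.017 to 0.0681 for Bcl3 and 0.0111 to 0.0903 for Zfp36. Without control replicate 1 the adjusted p was 0.0658 for Osm, 0.0551 for Socs7 and 0.0706 for Zfp36. Without control replicate 3 it was 0.0655 for Osm, 0.0508 for Ptpn1 and 0.0755 for Zfp36. Without PhenDC3 replicate 1 it was 0.12 for Osm, 0.0553 for Socs7 and 0.0903 for Zfp36. Without PhenDC3 replicate 2 it was 0.0839 for Osm, 0.097 for Ptpn1, 0.0507 for Bcl3 and 0.0798 for Zfp36, and without PhenDC3 replicate 3 it was 0.0628 for Socs7, 0.0786 for Ptpn1 and 0.0681 for Bcl3.

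**Figure D4:**
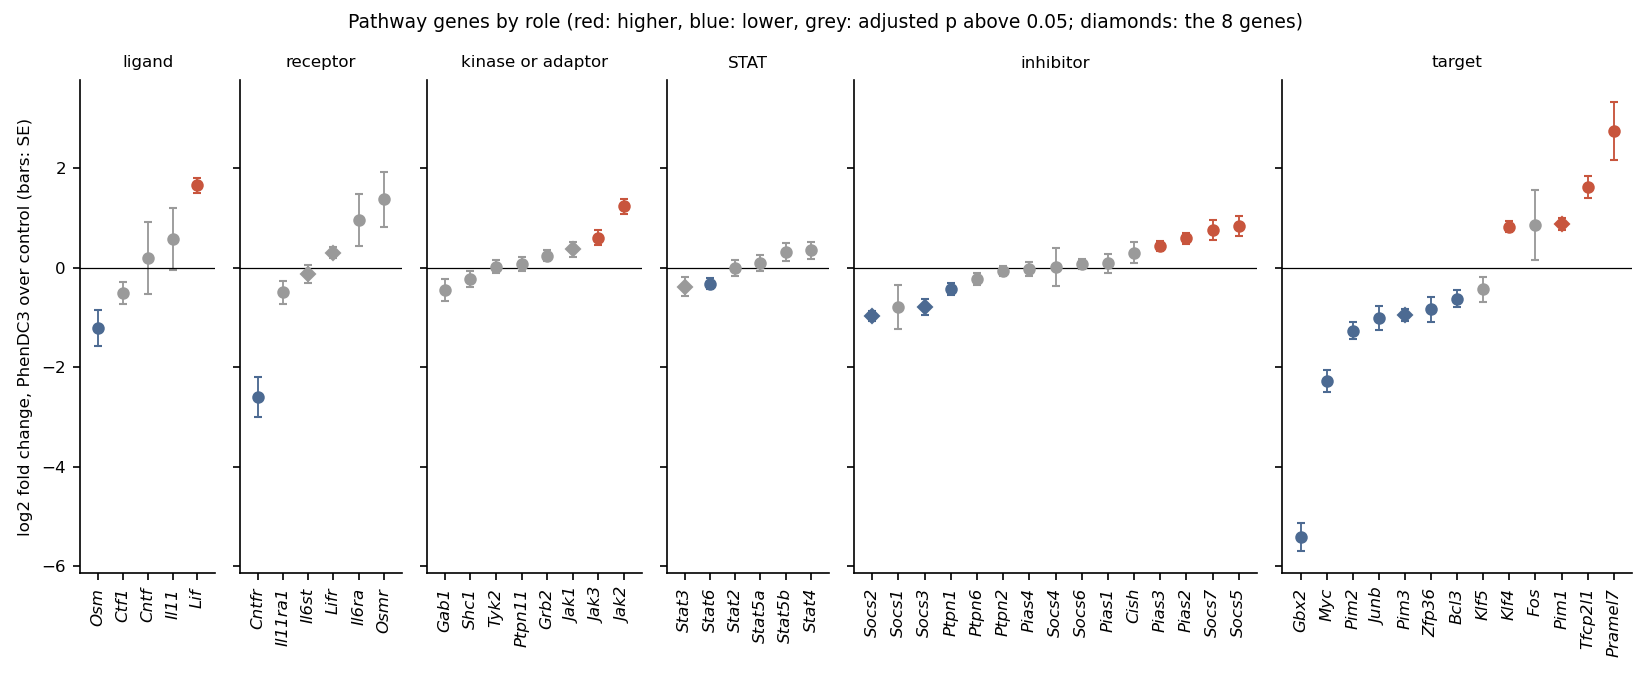
Log2 fold change of tested genes of the pathway list, PhenDC3 over control, grouped by role and ordered within each role, with bars for the SE; red is higher and blue lower at an adjusted p of at most 0.05, grey did not pass, and diamonds are the 8 members. Targets span from Gbx2 at -5.42 to Pramel7 at 2.75, whereas Stat6 is the only STAT gene drawn in colour.

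Markers of cell types were read beside these changes. The summed level of 10 ES cell markers was 7440 to 8405 CPM in control and 8630 to 10072 CPM in PhenDC3. By this sum the labelled cell type matched its markers in all samples. Dppa5a had the largest part in the sum, with a mean of 2282 CPM in control and 3359 CPM in PhenDC3. The single markers split, with 4 higher (Nanog, Klf4, Dppa5a and Fgf4) and 2 lower. The 2 were Pou5f1 (log2 fold change -0.45, adjusted p = 0.0113) and Tdgf1 (-0.67, adjusted p = 0.00733), by edgeR's test. Summed markers of primitive endoderm, a lineage that can appear in ES cultures, were 47.4 to 111 CPM in control and 96.4 to 158 CPM in PhenDC3, and 4 of the 6 were higher. For trophoblast the sums were 65.3 to 82.5 and 133 to 170.3 CPM, with 2 of 5 tested markers higher (Tfap2c and Krt8) and the defining marker Cdx2 at 0.17 to 0.46 CPM in every sample. For neuroectoderm the sums were 22.3 to 25.1 and 38.0 to 40.5 CPM, with Nes higher and Pax6 lower. Mesoderm markers summed to at most 2.76 CPM and fibroblast markers to at most 8.68 CPM in any sample. No marker was at 0 in all samples. The part of other cell types in the changes of the 8 genes was not tested, and in bulk RNA fewer cells of a type and less RNA per cell cannot be told apart.

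SNS-seq gives a second readout at the same genes. Short nascent strands are young DNA strands that still carry the RNA primer from the start of replication, and the authors called peaks in each replicate against an RNase-treated library of the same condition, in which the protecting RNA primers are removed. The lists held 79377 to 144103 peaks on assembled chromosomes without counts of reads, and the depth of each list is therefore unknown. A peak within 2 kb of an annotated start was found for 8, 8 and 6 of the 8 genes in control replicates 1, 2 and 3, beside 67.2%, 64.6% and 39.2% of the tested genes. In PhenDC3 replicates 1 and 2 it was found for 8 and 5 of the 8 genes, beside 64.3% and 46.0%. Il6st and Socs3 had none in control replicate 3, and Lifr, Il6st and Socs3 had none in PhenDC3 replicate 2. The lists with fewer members were those with fewer genes in all. The 3 control lists shared 6 of the 8 genes (33.5% of tested genes), the 2 PhenDC3 lists shared 5 (41.5%), and all 5 lists shared 5 (25.9%): Jak1, Stat3, Socs2, Pim1 and Pim3. Without PhenDC3 replicate 2 the remaining PhenDC3 list held 8.

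Joined where they overlapped, the 92 peaks near the 8 genes formed 37 regions, and 2 of these were in all 5 lists. The region at Jak1 (chr4:101265659-101266313) was centred 704 bp upstream of a start. Its fold enrichment was 4.90, 3.86 and 5.64 in the control lists and 5.23 and 5.06 in the PhenDC3 lists. The region at Stat3 (chr11:100938766-100939251) was centred 532 bp downstream. Its fold enrichment was 8.06, 7.84 and 5.46 in control and 5.63 and 3.77 in PhenDC3. The enrichments of the 2 conditions refer to different RNase-treated libraries and are given side by side without a test, which 3 lists against 2 could not pass.

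At Pim1, the region that begins at the end of the printed promoter and runs past its start (chr17:29490771-29491156) was in 4 lists. Its fold enrichment was 15.99, 6.62 and 5.80 in control and 7.86 in PhenDC3 replicate 1, with no peak in PhenDC3 replicate 2. Control replicate 1 held the highest enrichment near any of the 8 genes. Another region of Pim1 (chr17:29492144-29492342), 842 bp upstream of its downstream start, was in all 3 control lists (7.37, 4.75 and 3.36) and in neither PhenDC3 list. At Lifr, the region chr15:7129915-7130365, centred 568 bp downstream of the printed promoter's start, had 5.27, 6.73 and 5.41 in control and 3.74 in PhenDC3 replicate 1. At Socs3 the region that covers the downstream STAT motif (chr11:117969103-117969327) had 6.14 and 3.34 in control replicates 1 and 2 and no peak in the other lists.

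Of the 37 regions, 6 were in at least 2 control lists and in no PhenDC3 list (2 at Jak1, 2 at Socs3, 1 at Il6st and 1 at Pim1). None was in both PhenDC3 lists and no control list. Over all 32313 such regions near tested genes, 16.7% were of the former kind, 2.63% of the latter, and 9.40% were in all 5 lists. The 6 regions are thus about the share found near tested genes in general, and with 3 control lists against 2 PhenDC3 lists the kinds are not on an equal footing. A predicted G4 within 500 bp of the peak centre was found for 45 of the 74 peaks that were scored, from 12 of 14 at Jak1 to 1 of 7 at Lifr, and for 8 of 15 at Pim1. A place with a peak in several lists counts once for each list, so the 74 peaks are not separate places. No such share was computed over all peaks. The genes that rose, fell or did not pass by RNA had peaks in at least 3 of the 5 lists each, and the SNS-seq samples are not the RNA-seq samples.

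**Figure D5:**
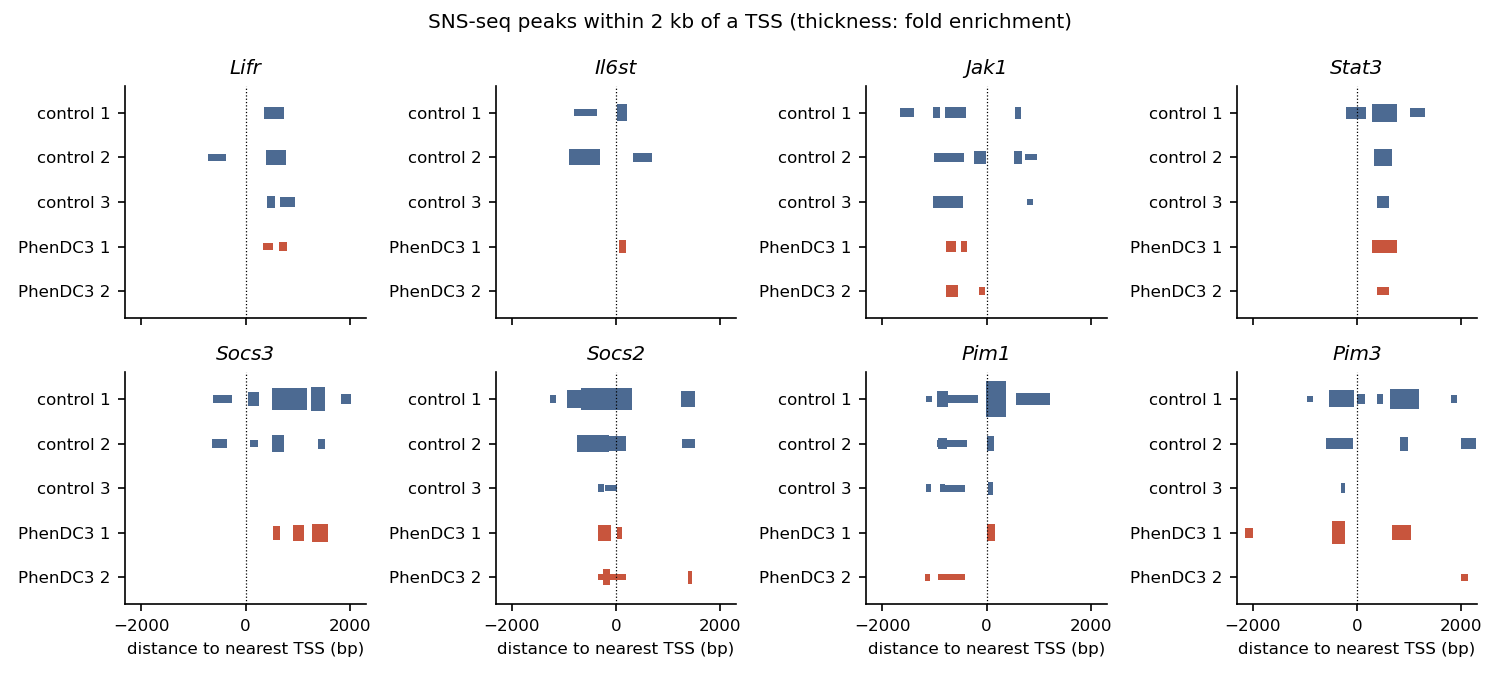
SNS-seq peaks within 2 kb of an annotated start of each of the 8 genes, by list (control blue, PhenDC3 red); the horizontal axis is the distance to the nearest start in bp with downstream to the right, and bar thickness is the fold enrichment. Jak1, Stat3, Socs2, Pim1 and Pim3 have a peak in all 5 lists, and PhenDC3 replicate 2 has none at Lifr, Il6st and Socs3.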

How the data were processed

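RNA-seq libraries (stranded mRNA) of 3 control and 3 PhenDC3 samples were mapped by the authors with TopHat2 2.1.1 and Bowtie2 2.2.9 and counted on genes with HTSeq 0.6.1p1; the deposited counts are raw, with 22232014 to 29486502 per sample. The annotation and strand setting of the counting are not given in the sources used here. Columns were assigned to samples by the treatment and replicate number in their names. For SNS-seq, the authors called peaks per replicate with MACS2 2.1.0 on mm10 (GRCm38) and kept those overlapping a SICER region. The deposited lists give a fold enrichment (a ratio to the RNase-treated library) and −log10 p-values and q-values by the authors' caller. The authors also deposited normalized pseudo-counts and a DESeq2 comparison (mean level, fold change, p-values); neither was used.

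Counts were tested with edgeR 4.0.16 in R 4.3.3 (robust quasi-likelihood fit, relative log expression, filterByExpr, condition as the term, Benjamini-Hochberg over 13972 genes, adjusted p of at most 0.05), checked on simulated counts. The SE is the log2 fold change over the root of the test statistic. RPKM used the union of RefSeq exons. Peaks were assigned within 2 kb of RefSeq starts, and G4 were scored with G4Hunter (window of 25 bases, score of at least 2). Promoter sequences are from RefSeq (GRCm38.p6). Replicates of a condition differed by more than sampling noise. Alternatives were TMM, no filter on low counts, DESeq2 1.42.0, a replicate block, each sample left out, the longest transcript as length, a 500 bp window, summits, and stronger peaks. The members, lists and tests were chosen with earlier results of these data known. Genes named with values are the 8 members, up to 16 list genes with the lowest adjusted p, paralogues of members, Lif, and the 3 genes most like the member with the lowest adjusted p; 2 of the genes this rule takes are not reported here.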

Additional observations from a re-analysis of the deposited data

How the results depend on the processing

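The 4 members that passed (Socs3, Socs2, Pim1 and Pim3) kept their direction and their call in all 10 alternative fits: TMM, no filter on low counts, DESeq2, the replicate block and each of 6 samples left out. TMM, no filter and DESeq2 changed no call of a member. With 1 sample left out, the log2 fold change ranged from 0.23 to 0.38 for Lifr (passing without control replicate 1), from 0.24 to 0.53 for Jak1 (passing without control replicate 3), and from -0.29 to 0.052 for Il6st, whose sign turned without control replicate 3; the number of genes called ranged from 3332 to 5416. The labels number the replicates 1 to 3 in both conditions, and deviations of same-numbered samples correlated at 0.09, 0.54 and 0.41. Only 2 of the 3 exceeded 0.1, so the samples were taken to share a number and no more, although each sample correlated best with its own number, a hint from the data. The leading numbers of the count table's columns also run on within a replicate number, control before PhenDC3, but no source says what they mark. With the replicate number as a block, 7 members passed: Lifr (0.30, adjusted p = 0.012), Jak1 (0.39, adjusted p = 0.00403) and Stat3 (-0.37, adjusted p = 0.00231) joined the 4, all genes called rose to 7489 and list genes called to 35. The cause was not tested. Dividing by the longest transcript in place of all exons moved Socs2 to 38.8 RPKM in control and 19.7 in PhenDC3, and Lifr in PhenDC3 to 12.7 RPKM, since the divisor is shorter. Members with a peak in every PhenDC3 list numbered 5 to 8 with a PhenDC3 list left out, 8 without PhenDC3 replicate 2. Among list genes, Stat6 did not pass without the filter on low counts (-0.33, adjusted p = 0.0632). Genes with few counts, such as Osm, Pramel7 and Cntfr, have wide errors at this depth.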
